A study of Mus musculus with 4 samples.

Results

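Tgm2 encodes transglutaminase 2, and its mRNA signal was higher in naive CD4 T cells from mice labelled furin knockout than in those labelled wild type, on each of the 6 probe sets that the array annotation maps to Tgm2 alone. A probe set is a group of short probes read as 1 value. These 6 were taken out of 45037 non-control probe sets, and Tgm2 (Entrez 21817) is 1 of 18193 genes named on the array. The gene was chosen for this difference, so its values are a description and carry no test. The cells came from mice of 10 to 11 weeks and were sorted as CD4+ CD62L+ CD44-. The 2 knockout arrays hold RNA of CD4-cre fur flox/flox mice, in which Cre recombinase under the CD4 promoter acts in T cells, and the 2 wild-type arrays RNA of fur flox/flox littermates without Cre, so that the floxed gene is common to all 4. Whether each array stands for its own animal, or for pooled animals, is not in the labels, so the spread between them may be technical.

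Transglutaminase 2 joins glutamine to lysine side chains of proteins in a reaction that needs calcium, and it also binds and hydrolyses GTP. Outside the cell it cross-links matrix proteins such as fibronectin and binds integrins, and it takes part in the release of active TGF-beta, a cytokine whose precursor furin cleaves. Its gene is known to respond to retinoic acid, TGF-beta and NF-kappaB, and macrophages, endothelium and fibroblasts are known for high levels of it.

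Values are MAS5 signals on a linear scale, and differences are knockout minus wild type of log2(signal + 15.3), a scale that understates the change of dim probe sets. The number of arrays limits the precision of every value. Arrays numbered 1 and 2 also stood apart technically. From array 1 to array 2, the spiked bacterial controls gained 5.99-fold in wild type and 5.82-fold in knockout. Differences are therefore given within the arrays numbered 1 and within those numbered 2. Of 14 naive CD4 T cell genes looked for, 11 had a probe set and all 11 passed the filter on dim probe sets, with Cd4 at 3432 and 2974 on the wild-type arrays 1 and 2 and 3032 and 3348 on the knockout arrays. Markers that the sort should leave out passed as well: Cd44 read 1126 and 1099 in wild type and 863.2 and 965.2 in knockout, and 8 of 9 B cell and 6 of 12 neutrophil genes were kept. Over the whole array 10211 of 18193 genes were kept, so the neutrophil count is near the share of any genes. Furin itself read 435.1 and 343.9 in wild type and 391.4 and 446.9 in knockout. Where its only probe set lies relative to the deleted part is not given in the sources used here, so this checks nothing.

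The probe set with the highest mean log2 signal over all 4 arrays, 1437277_x_at, read 63.6 on wild-type array 1 and 78.3 on wild-type array 2. On the knockout arrays 1 and 2 it read 1585 and 1017. Both knockout arrays stood far above both wild-type arrays, and the lower knockout value was 12.99-fold the higher wild-type value. The group means were 71.0 ± 10.4 (SD, n = 2) and 1301 ± 401 (SD, n = 2). In wild type alone, 1433428_x_at (mean 82.0) and 1426004_a_at (mean 78.4) were brighter. Choosing by the mean over all 4 arrays thus favours a probe set that is high in knockout, and so a large difference. On the log2 scale the difference was 3.90 (SE 0.38), with 4.34 in the arrays numbered 1 and 3.46 in those numbered 2.

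Probe set 1433428_x_at read 104.7 and 59.3 on the wild-type arrays and 718.9 and 906.9 on the knockout arrays, a difference of 3.12 (SE 0.40; 2.61 and 3.63 within arrays numbered 1 and 2). Probe set 1455900_x_at read 32.8 and 60.7 in wild type and 484.2 and 468.5 in knockout, a difference of 3.02 (SE 0.38; 3.38 and 2.67). In both, the lower knockout array lay well above the higher wild-type array, by 6.87-fold for the former and 7.72-fold for the latter.

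Probe set 1417500_a_at gave the widest spread within groups. Its signal was 47.9 on wild-type array 1 and 4.8 on wild-type array 2, and 184.5 and 612.7 on the knockout arrays. The groups did not overlap, but the difference was 1.66 in the arrays numbered 1 and 4.97 in those numbered 2, for a mean of 3.31 (SE 0.82). The value of 4.8 lies below the added 15.3, so the size of the second difference depends on that constant.

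The other two differed less. Probe set 1426004_a_at read 71.9 and 84.9 in wild type and 111.5 and 171.1 in knockout, a difference of 0.72 (SE 0.37; 0.54 and 0.90), with the lower knockout array 1.31-fold the higher wild-type array. Probe set 1438942_x_at was dim throughout, at 2.2 and 4.2 in wild type and 16.1 and 30.4 in knockout, and it alone of the 6 did not pass the filter, a mean log2 value of 6.24 that corresponds to a signal of about 60.0. Its difference of 1.04 (0.84 and 1.23) is shrunk by the added constant.

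**Figure D1:**
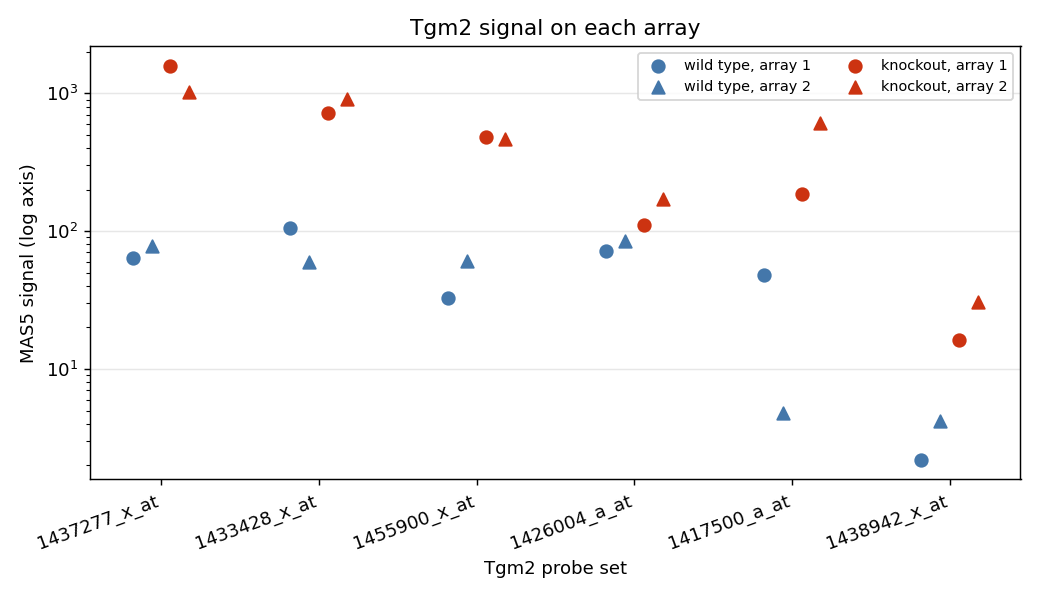
MAS5 signal (log axis) of the 6 Tgm2 probe sets on each of the 4 arrays, with blue for wild type, red for knockout, circles for arrays numbered 1 and triangles for those numbered 2. Both red points lie above both blue points for every probe set, narrowly for 1426004_a_at (84.9 against 111.5) and widely for 1437277_x_at (78.3 against 1017).

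Both knockout arrays were above both wild-type arrays in 6 of 6 Tgm2 probe sets, an order found in 10.9% of all probe sets, and 4 of 6 were at least 2-fold apart in every one of the 4 comparisons of a knockout with a wild-type array, which held for 0.278% of all probe sets. The gene was chosen on this contrast, so these counts describe it and support nothing. The median difference over the 6 was 3.07, with a range from 0.72 to 3.90. Among kept probe sets 0.164% were 2-fold higher in all comparisons, and these name 26 genes. Tgm2 had 4 such probe sets of 5 kept, and Hspa1b, an inducible HSP70, had 3 of 3. The others had 1 or 2, with Jun, Dtl and Iigp1 at 2 of 2 and Btg1 at 1 of 3. A gene with more kept probe sets can reach a higher count. Tgm2 probe sets 1455900_x_at and 1417500_a_at had wild-type mean signals of 46.75 and 26.35, below the filter, and were kept through their knockout signals.

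Ranked by mean difference among the 45037 probe sets, those of Tgm2 stood at positions 3 (1437277_x_at), 8 (1417500_a_at), 10 (1433428_x_at), 12 (1455900_x_at), 761 (1438942_x_at) and 2456 (1426004_a_at). Ranked by the smallest of the 4 comparisons, they stood at 2, 22, 7, 6, 385 and 1330 in the same order of probe sets. In the arrays numbered 1 alone 1437277_x_at ranked 2, and in those numbered 2 alone it ranked 17, while 1417500_a_at ranked 128 and 4. With 1 array left out, the rank of 1437277_x_at by mean difference lay between 5 and 19, lowest in the list without knockout replicate 1.

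The probe sets agreed in direction but not in size. Among the 389 genes with at least 5 kept probe sets, the gap between a gene's highest and lowest difference had a median of 0.61. For Tgm2 it was 3.19, in position 2 after Ighm, an immunoglobulin heavy chain, also at 3.19. A wide gap needs a probe set with a large difference, and Tgm2 was chosen for its difference, so this position follows in part from that choice. The low end for Tgm2 was 1426004_a_at. By the maker's naming, probes of an _a_at set match alternative transcripts of 1 gene, while an _x_at set holds probes that also match other sequences, and 4 of the 6 Tgm2 sets are of the second kind. One of the 2 _a_at sets, 1417500_a_at, differed by 3.31 and the other, 1426004_a_at, by 0.72. Which exons or transcripts each covers is not given in the sources used here.

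Between arrays of the same group, Tgm2 probe sets had no common direction by array number. From knockout array 1 to knockout array 2, 1437277_x_at differed by -0.63 and 1417500_a_at by 1.65, and between the wild-type arrays these probe sets differed by 0.25 and -1.65. The knockout difference was larger in the arrays numbered 1 for 2 probe sets and larger in those numbered 2 for 4.

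Genes were then ordered by how close their 4-array profile lay to that of 1437277_x_at, as the Euclidean distance between log2 values centred on each gene's mean over the 4 arrays, with 1 kept probe set for each of 10211 genes. The 8 nearest genes had distances from 0.56 to 1.87. H3f3b, which encodes the replacement histone H3.3, was nearest at 0.56. Its signals were 244.7 and 272.9 in wild type and 5226 and 2107 in knockout, so like 1437277_x_at it read higher on knockout array 1 than on knockout array 2. Jun and Fos, which pair to form the transcription factor AP-1, followed at 0.80 and 1.03. Jun read 232.7 and 238.9 in wild type and 6632 and 5795 in knockout.

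The next were Dtl, an adaptor of a ubiquitin ligase, at 1.31 and the interferon-inducible GTPases Gm4951 at 1.37 and Iigp1 at 1.85. Ccl5, a chemokine, lay at 1.86 and Ppp1r15a, a stress-induced phosphatase subunit, at 1.87. All 8 were at least 2-fold higher in all comparisons, which follows largely from how they were chosen. Ppp1r15a differed most between array numbers, at 3.11 and 1.21. Set against these, the Tgm2 probe sets 1455900_x_at and 1433428_x_at lay at distances of 1.02 and 1.23 from 1437277_x_at, 1417500_a_at at 2.18 and 1426004_a_at at 3.29.

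**Figure D2:**
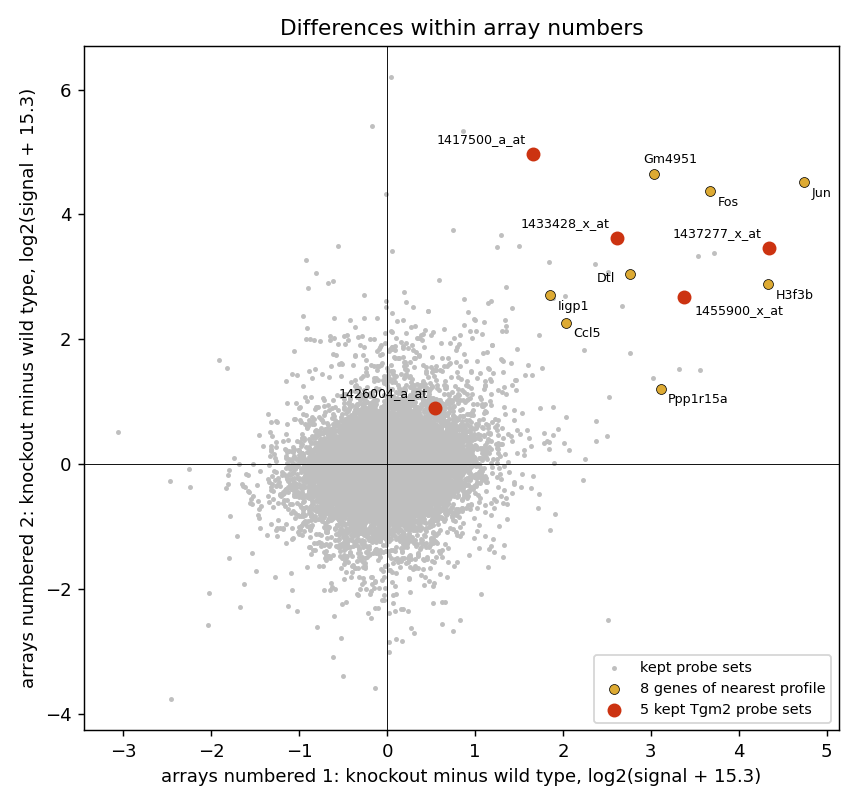
Knockout minus wild type on the log2(signal + 15.3) scale within the arrays numbered 1 (horizontal) and numbered 2 (vertical), for 22518 kept probe sets (grey), the 5 kept Tgm2 probe sets (red) and the 8 genes with the nearest profiles (yellow). The Tgm2 point at 0.54 and 0.90 lies in the grey cloud, and the other 4 lie outside it, at 1.66 or more on both axes.

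No other transglutaminase was measured above the filter. The family holds the enzymes Tgm1 to Tgm7, the coagulation factor XIII A chain F13a1 and Epb42, a red cell membrane protein of the family that has lost enzyme activity. Of the 8 genes besides Tgm2, 7 had probe sets, 9 in all, and 0 of the 9 were kept. Their signals ran from 2.7 to 106.3. Both knockout arrays were above both wild-type arrays in 2 of 9, against 10.9% of all probe sets. In all comparisons 0 of 9 were 2-fold higher, against 0.278% of all probe sets, so this count says nothing about the family.

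F13a1, which macrophages also make, read 34.8 and 27.1 in wild type and 55.0 and 93.3 in knockout, a difference of 0.92 (0.49 and 1.36 within arrays numbered 1 and 2). Tgm6, a transglutaminase of neural tissue, read 10.9 and 6.7 in wild type and 17.3 and 96.1 in knockout, so its difference of 1.33 came mainly from knockout array 2. The skin enzymes Tgm1, Tgm3 and Tgm5 and the prostate enzyme Tgm4 had overlapping groups. Tgm3, with 2 probe sets, differed by -0.26 and -0.68, Tgm4 by 0.60, Tgm5 by 0.29 and Tgm1 by 0.24, and the 2 probe sets of Epb42 went opposite ways, at -0.44 and 0.59. Of the 9 probe sets, 5 were higher and 2 lower within both array numbers, against 25.7% and 26.8% of all probe sets.

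The measured genes next to Tgm2 on its chromosome all had overlapping groups, as most probe sets did. Over all probe sets, both knockout arrays were above both wild-type arrays in 10.9% and below in 10.9%. Of the 5 protein-coding genes on each side, 8 of 10 had a probe set and 6 were kept. Rprd1b, the nearest measured gene and a regulator of RNA polymerase II, read 1502 and 1197 in wild type and 1693 and 1167 in knockout, a difference of 0.07 (SE 0.37; 0.17 and -0.04). On the other side, Lbp, the lipopolysaccharide-binding protein, differed by -0.11 (SE 0.49; 0.66 and -0.87). The 8 neighbours had a median difference of -0.05. Within both array numbers 1 of them, Tti1 (0.14, SE 0.39), was higher and 0 were lower, against 25.7% and 26.8% of all probe sets. In all comparisons 0 were 2-fold higher, against 0.278% of all probe sets, so that count says nothing about these genes.

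**Figure D3:**
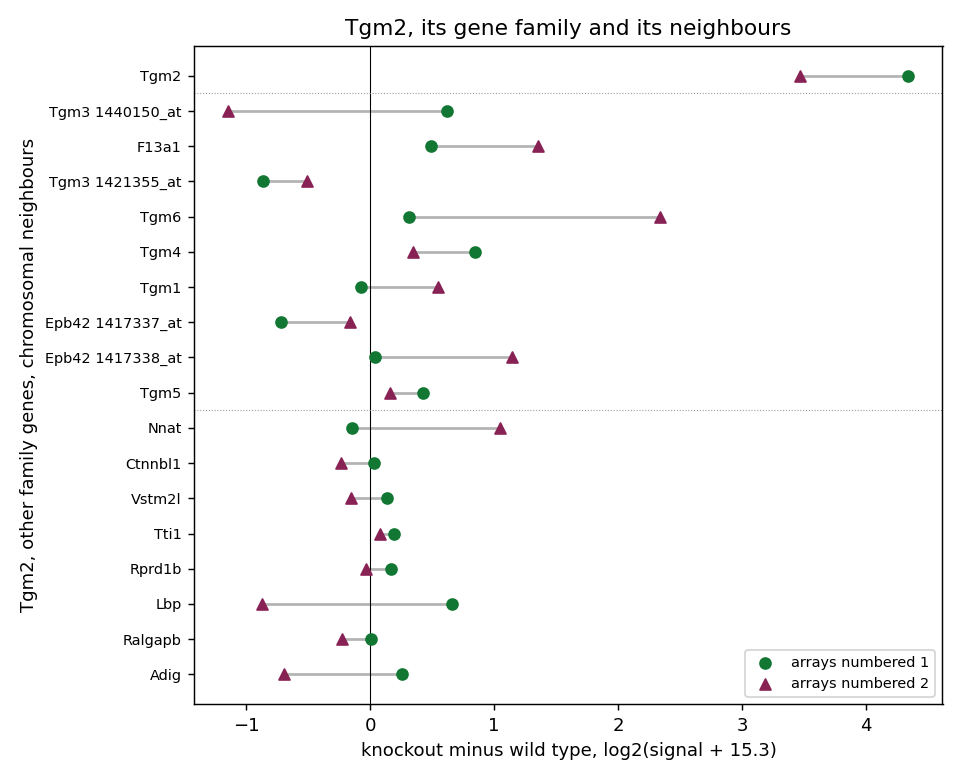
Knockout minus wild type on the log2(signal + 15.3) scale within arrays numbered 1 (circles) and 2 (triangles) for Tgm2 probe set 1437277_x_at (top), the 9 probe sets of other family genes (middle) and 8 chromosomal neighbours (bottom). The Tgm2 points lie at 4.34 and 3.46, and of the other points the farthest to the right is Tgm6 in arrays numbered 2, at 2.34.

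Lists of genes tied to Tgm2 were examined with limma across all kept probe sets. Without a block for array number, limma called 0 of 22518 probe sets at a Benjamini-Hochberg adjusted p of 0.05, a background of 0%, with 145 at an unadjusted p under 0.05, and so 0 list genes. With the array number as a block it called 6 probe sets (0.0266%), 0 of them the probe set of a list gene besides Tgm2. In 4 lists, of partners and substrates, the retinoid pathway, inducing signals and apoptotic cell clearance, 40 kept gene entries gave 0 that were 2-fold higher and 0 that were 2-fold lower in all comparisons, against 0.176% and 0.0294% of all kept genes. The median difference over all kept genes was -0.002.

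Partners and substrates of the enzyme had a median of -0.08, and 2 of 10 kept genes were higher and 2 lower within both array numbers, against 27.7% and 27.2% of all kept genes. Fn1, or fibronectin, a matrix substrate, read 32.6 and 84.6 in wild type and 55.3 and 181.9 in knockout, a difference of 0.77 (SE 0.67; 0.56 and 0.98) with overlapping groups. Tgfb1 differed by -0.39 (SE 1.15; -1.004 and 0.21) and Itgb1, the integrin beta 1 chain, by -0.37 (SE 0.42; -0.83 and 0.10).

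The retinoid list had a median of -0.03. Within both array numbers 2 of 6 kept genes were higher and 2 lower, against 27.7% and 27.2% of all kept genes. Rara, a retinoic acid receptor, read 14.1 and 143.6 in wild type and 86.1 and 185.0 in knockout, a difference of 1.06 (SE 0.90; 1.79 and 0.33). Wild-type array 2 exceeded knockout array 1 there, so the groups overlapped. The retinoid-responsive homing receptor Ccr9 differed by 0.28 (SE 0.33; 0.45 and 0.12) and the receptor Rxra by -0.21 (SE 0.50; -0.01 and -0.42).

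Signals and factors known to induce Tgm2 had a median of -0.001, with 2 of 15 kept genes higher and 6 lower within both array numbers. Over all kept genes 27.7% were higher and 27.2% lower, the shares also for the clearance genes below. Counts this small show no shift of the list. The largest differences were negative. The interleukin 6 receptor gene Il6ra differed by -0.59 (SE 0.34; -0.46 and -0.72), Tgfbr1, a TGF-beta receptor, by -0.33 (SE 0.47; -0.16 and -0.49) and Ikbkb, a kinase that activates NF-kappaB, by -0.30 (SE 0.39; -0.44 and -0.16). Genes of apoptotic cell clearance, a process in which macrophages use transglutaminase 2, had a median of -0.04, with 1 of 9 kept genes higher and 3 lower. Cd300lf, a myeloid receptor, differed by 0.72 (SE 0.64; -0.24 and 1.67), Rac1 by -0.30 (SE 0.36; -0.65 and 0.04) and the receptor kinase Tyro3 by -0.26 (SE 0.39; -0.35 and -0.18).

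Marker genes of other cells that are known to hold Tgm2, or that the sort could have let through, were set beside it. In bulk samples, more cells of a type and more RNA per cell cannot be told apart. The summed signal of 16 macrophage markers was 555.3 and 1005 in wild type and 883.2 and 2188 in knockout, or 1.59-fold and 2.18-fold higher within arrays numbered 1 and 2, where Tgm2 1437277_x_at was 24.9-fold and 12.99-fold higher. Of the 16, 8 were higher and 1 was lower within both array numbers, where 25.7% of all probe sets were higher and 26.8% lower, the shares that the counts for the other cell types below are also to be read against. Of these 16, 5 were kept and 0 were listed at 0.

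Lyz2, the macrophage and neutrophil lysozyme, read 54.6 and 174.2 in wild type and 123.3 and 935.4 in knockout, a difference of 1.66 (SE 1.06; 0.99 and 2.33), and Csf1r, the macrophage growth factor receptor, differed by 0.80 (SE 0.41; 0.62 and 0.97). Adgre1, which encodes F4/80, differed by 0.37 (SE 0.38; 0.61 and 0.12). Markers below the filter went both ways on knockout array 1. The complement gene C1qb read 25 and 50.5 in wild type and 70.3 and 104.6 in knockout, and the Fc receptor gene Fcgr1 47.9 and 20.4 in wild type and 69.4 and 85.2 in knockout, with both knockout arrays above both wild-type arrays. C1qa read 3.4 and 4.6 in wild type and 2.4 and 53.4 in knockout.

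Neutrophil and B cell markers were highest on knockout array 2. Of the 6 Tgm2 probe sets, 4 were also higher on knockout array 2 than on knockout array 1, and 2, 1437277_x_at and 1455900_x_at, were lower. The 12 neutrophil markers summed to 244.4 and 992.0 in wild type and 590.4 and 10202 in knockout, and 10 of the 12 were higher and 0 lower within both array numbers. The leading ones were Ngp, a granule protein, at 2.53 (SE 1.07; 1.84 and 3.23), S100a8 at 2.50 (SE 1.78; 1.502 and 3.50) and S100a9 at 2.48 (SE 2.51; 1.29 and 3.66). These SEs are from the fit without a block, so they include the gap between array numbers. With array number as a block they were 0.35, 0.47 and 0.54. The median of the kept neutrophil genes, 2.19, ranged from 0.62 without wild-type replicate 1 to 3.89 without knockout replicate 1, and was 0.64 without knockout replicate 2. Leaving out an array mixes array number with genotype, so this range is not one of the knockout difference alone. Some of these genes, such as S100a9 (26.4 and 3797 on the knockout arrays), were kept largely through knockout array 2. Over all 12 markers, kept or not, the median was 1.81.

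The 9 B cell markers summed to 1017 and 4419 in wild type and 1508 and 15998 in knockout, with 7 higher and 0 lower within both array numbers and a kept median of 0.91. Cd74, the invariant chain of MHC class II, differed by 1.54 (SE 1.57; 0.95 and 2.14), H2-Aa, an MHC class II chain, by 1.37 (SE 1.06; 0.82 and 1.92) and Cd79b, of the B cell receptor, by 0.95 (SE 1.49; 0.44 and 1.47). With array number as a block these SEs were 0.32, 0.30 and 0.29. The B cell median turned to -0.13 without wild-type replicate 1 and to -0.87 without knockout replicate 2, where the Tgm2 difference was 3.78 and 4.22. With an array left out, array numbers are no longer balanced between groups, and B cell signals rose with array number. Both medians therefore mix array number with genotype. Within arrays numbered 1 and 2 the medians of the kept B cell genes were 0.24 and 1.66. From knockout array 1 to knockout array 2 the sums of macrophage, neutrophil and B cell markers were 2.48-fold, 17.3-fold and 10.6-fold higher. From wild-type array 1 to wild-type array 2 they were 1.81-fold, 4.06-fold and 4.35-fold higher. The naive CD4 T cell sum also rose with array number, 1.93-fold in knockout and 1.92-fold in wild type. Between the knockout arrays Tgm2 1437277_x_at was 0.642-fold, 1455900_x_at went from 484.2 to 468.5, 1433428_x_at from 718.9 to 906.9 and 1417500_a_at from 184.5 to 612.7. The part of macrophages, neutrophils and B cells in the Tgm2 difference was not tested.

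Endothelial and stromal markers had no common direction towards the knockout. The 10 endothelial genes summed to 670.0 and 2298 in wild type and 545.4 and 2136 in knockout. Of them, 0 were higher and 4 lower within both array numbers. Cdh5, Tie1 and Vwf had no signal above 21.5, and Plvap and Tek none above 30. Others were brighter, with Kdr at 128.5, Egfl7 at 102.7, Cldn5 at 78.0 and Emcn at 59.2 on wild-type array 2. Pecam1, which T cells also express, was the brightest, at -0.19 (SE 1.04; -0.45 and 0.07), and Kdr differed by -1.11 (SE 0.56; -0.18 and -2.04). The 9 stromal genes summed to 283.6 and 373.5 in wild type and 405.5 and 362.2 in knockout, with 3 higher and 3 lower within both array numbers. Among them Acta2 differed by -0.46 (SE 0.36; -0.14 and -0.79) and Cxcl13 by 0.49 (SE 0.45; 1.01 and -0.03). Col1a2, a collagen chain of fibroblasts, did not pass the filter. It read 23.9 and 24.9 in wild type and 85.9 and 65.2 in knockout, a difference of 1.19, so it was 2-fold higher in all comparisons and, like Tgm2 1437277_x_at, higher on knockout array 1 than on knockout array 2. The other collagen genes, Col1a1 and Col3a1, differed by -0.16 and -0.19.

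The 7 dendritic cell markers summed to 332.3 and 325.3 in wild type and 331.2 and 446.5 in knockout, with 1 kept gene, Zbtb46, at 0.10 (SE 0.35; -0.21 and 0.41). The 6 markers of CD8 T and NK cells summed to 2439 and 2761 in wild type and 2788 and 2828 in knockout. Nkg7, a granule protein of cytotoxic cells, differed by 1.22 (SE 0.35; 0.96 and 1.49), Cd8a by -0.26 and Cd8b1 by 0.17, and the brightest, Klrd1, by -0.03. The 3 erythroid genes summed to 68.8 and 970.8 in wild type and 34.9 and 378.0 in knockout, with Slc4a1 at -0.72 and Alas2 at -0.48. The naive CD4 T cell genes, set beside these, had a median of -0.02, and Ccr7, a lymph node homing receptor, differed by -0.29, Il7r by -0.27, S1pr1 by -0.26 and the brightest, Cd3d, by 0.05. Of the 30 kept gene entries of the 8 lists of other cell types, 0 were 2-fold higher and 0 were 2-fold lower in all comparisons. Over all kept genes 0.176% were higher and 0.0294% lower in this way, so counts of 0 among 30 say nothing about these lists, and with no filter Col1a2 was 2-fold higher.

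**Figure D4:**
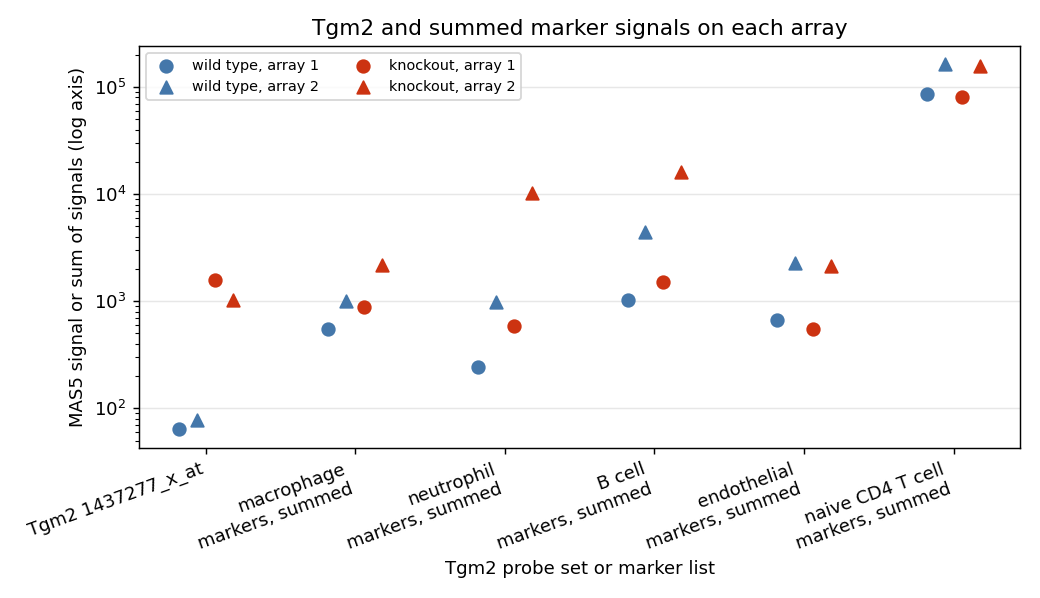
MAS5 signal of Tgm2 probe set 1437277_x_at and summed signals of marker lists on each array (log axis), with blue for wild type, red for knockout, circles for arrays numbered 1 and triangles for those numbered 2. This Tgm2 probe set is highest on knockout array 1 (1585) and the neutrophil and B cell sums are highest on knockout array 2 (10202 and 15998); 4 of the 6 Tgm2 probe sets are also higher on knockout array 2 than on knockout array 1.

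The size of the Tgm2 difference depended more on the choice of probe set than on scaling. Taken over all 6 probe sets, the mean difference was 2.52 and the median 3.07, against 3.90 for 1437277_x_at, the largest of the 6. With 1437277_x_at, the scaling was also varied. With quantile normalization it was 3.89, and with each array centred on its median 3.90.

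**Figure D5:**
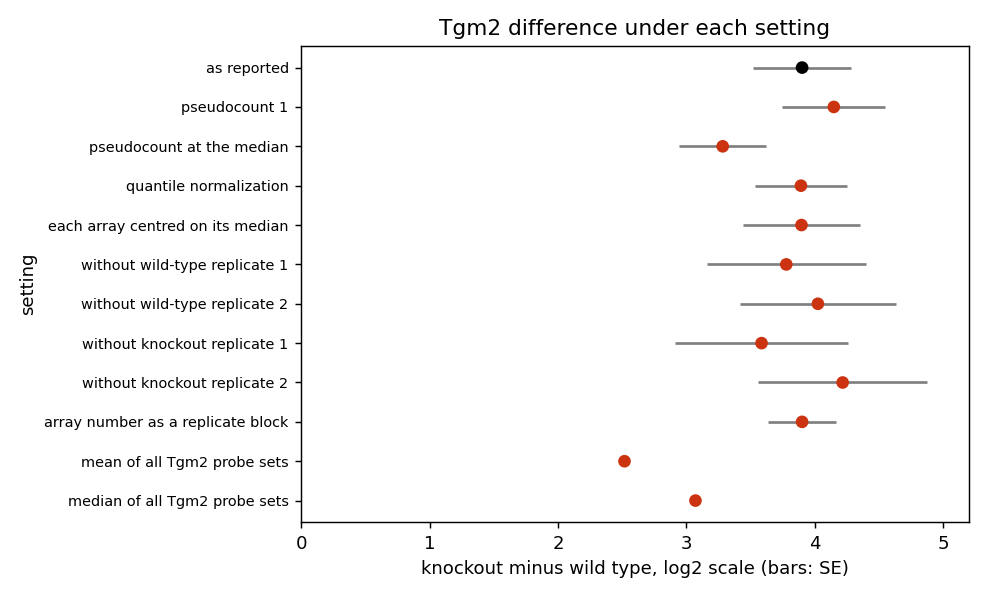
Tgm2 knockout minus wild type difference on the log2 scale as reported (black, 3.90) and under each other setting (red), with bars for the SE of the limma fit where there is one. Values run from 2.52, for the mean of all Tgm2 probe sets, to 4.22, without knockout replicate 2.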

How the data were processed

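Expression was measured on 4 Affymetrix arrays, 2 per group. Biotinylated cRNA was made from 5 micrograms of Trizol-extracted total RNA, per the labels' protocols. The deposited intensity values are MAS5 signals, per the submitters' processing notes, with version and settings not given in the sources used here. All 4 arrays have the same mean, 500.003, once 2% of values are trimmed at each end. There are no detection calls, so whether the low wild-type signals exceed background is not known.

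Of 45101 rows, 64 controls were left out. Of the other 45037 probe sets, 34945 had 1 gene symbol, 932 several and 9160 none. Of the 34945, 34741 had an Entrez identifier found in a RefSeq table of GRCm38.p6 and took the symbol given there, changed or not. That table was used for names and gene order only. Values were taken as log2(signal + 15.3), the constant being the 25% quantile over the whole table. The 22518 probe sets with a mean log2 value above the median were kept, and each of 10211 genes was represented by its kept probe set of highest mean. Family results use every probe set of the 7 other genes. Neighbours and the sums and within-number counts said to be over all markers of a list use a gene's probe set of highest mean, kept or not.

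Knockout was set against wild type in limma 3.58.1 (R 4.3.3), by a two-sided moderated test (lmFit, then eBayes) without a block, and p-values were adjusted after Benjamini and Hochberg. SEs are from this fit unless the block is named, so they include the spread between array numbers. The fit was checked on simulated data with independent noise and no effect of array number. That check therefore does not show how the fit behaves with such an effect. Across kept probe sets, the deviations from the group mean of arrays with the same number correlated at 0.80, but the labels give only the shared numbers, so the block is an alternative. Others were the pseudocount, scaling, filter, prior, fold limit, probe set choice and each array left out. Tgm2 and the 14 gene lists were chosen with earlier results of these data known. The genes named are Tgm2, its family, 5 protein-coding neighbours on each side, the 8 nearest profiles, and in each other list up to 3 kept genes of the largest difference, with the brightest kept marker of each cell type. Cd4, Cd44, Furin, Hspa1b, Ighm, C1qa, C1qb, Fcgr1, Col1a1, Col1a2, Col3a1, Cdh5, Tie1, Vwf, Plvap, Tek, Egfl7, Cldn5 and Emcn were named after their values were seen.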

Additional observations from a re-analysis of the deposited data

How the results depend on the processing

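The Tgm2 difference stayed above 0 under all 11 alternatives, which tests little. Both knockout arrays were above both wild-type arrays in all 6 probe sets. Leaving out an array, averaging probe sets or changing the pseudocount therefore could not change the sign, only the size. The difference was 3.28 with the pseudocount at the median, 2.52 for the mean and 3.07 for the median of the 6 probe sets. The pseudocount itself and the choice of probe set set these values. With each array left out the difference was 3.59 to 4.22, depending on which array was dropped.

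With array number as a replicate block, the Tgm2 difference was again 3.90 with an SE of 0.26, and limma called 6 probe sets against 0 without it. Combinations added after seeing the data gave 260 with the block and a trended prior, among them 8 list genes against 0, 5 with the block and quantile normalization, and 0 with the block and no filter, where the smallest adjusted p was 0.859; the cause was not tested. The other settings, all without the block, gave 0 calls.

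The count of kept probe sets 2-fold higher in all comparisons, 37, was 125 with no filter, 19 with the 75% filter, 106 with a 1.5-fold limit and 106 to 223 with each array left out, where fewer comparisons have to be met. That of lower ones, 9, was 5 with the pseudocount at the median, 53, 0 and 69 under the same filters and limit, and 82 to 258 with each array left out. Signal over background is unknown, which limits what can be said of the dim probe sets.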
